A study of Mus musculus with 6 samples.

Results

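The proteasome genes were taken as all protein-coding genes whose symbol starts with Psm, a letter from a to g and a number, on the mouse build mm10 with GENCODE M21 names. The rule found 50 of the 54532 genes listed, 45 of them outside the immunoproteasome and its PA28 activator and 5 within (Psmb8, Psmb9, Psmb10, Psme1 and Psme2). Of the 50, 48 had a mean of at least 1 FPKM (fragments per kilobase of exon, scaled to the depth of the library) over the libraries and were tested. Psmb9 and Psmb11 fell below that level. Psmc3ip, a recombination factor, and Psme2b, a single-exon copy of Psme2, matched by symbol only.

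RNA sequencing was done on an immortalised line of mouse bone marrow-derived macrophages (iBMDM). In 3 libraries the cells carried a short hairpin RNA against Pgam5, a protein phosphatase of mitochondria (shPGAM5). In the other 3 the hairpin was against Dnm1l, which encodes DRP1, the GTPase that divides mitochondria (shDRP1). Cells of both groups received interleukin-4, the cytokine that drives alternative activation, at 10 ng/ml for 24 h. No library without a knockdown and none without interleukin-4 was analysed here, so every difference below is 1 knockdown against the other. The titles number the libraries of each group 1 to 3 without saying whether these are separate cultures or separate hairpins, and the p-values then measure only the spread between these libraries, which may be technical.

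The proteasome degrades proteins tagged with ubiquitin. Its barrel-shaped 20S core is built of outer rings of alpha subunits and inner rings of beta subunits, of which Psmb5, Psmb6 and Psmb7 carry the cutting sites. The 19S particle caps the core, binds the ubiquitin chain, removes it and unfolds the substrate with a ring of ATPases. In cells exposed to interferon, Psmb8, Psmb9 and Psmb10 take the places of Psmb5, Psmb6 and Psmb7 in newly built cores, and the PA28 ring of Psme1 and Psme2 can take the place of the 19S cap. These immunoproteasomes are known for making peptides that are loaded on MHC class I molecules, also in macrophages.

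The libraries held 16111281 to 21933548 reads. Across genes, log2 levels of libraries of 1 group correlated at 0.993 to 0.995, and those of different groups at 0.986 to 0.988. Pgam5 was at 4.91, 5.21 and 4.60 FPKM in the shPGAM5 libraries and at 17.3, 17.1 and 17.2 FPKM in the shDRP1 libraries. Dnm1l was at 17.2, 18.7 and 17.7 FPKM in the former and at 8.18, 7.42 and 7.12 FPKM in the latter, so each target was lower in its own group. Of 8 macrophage markers 7 were tested, while Mertk had 1 read in each of 2 shDRP1 libraries and none in the others. The summed level of the 8 was 2136 to 2248 FPKM in the shPGAM5 libraries and 3115 to 3127 FPKM in the shDRP1 libraries. Lyz2 alone had means of 1272 and 1954 FPKM in these groups. Of the 7 tested, 4 fell (Fcgr1, Cd68, Csf1r and Lyz2), which is 57.1%, beside 11.7% of all genes. Adgre1, Spi1 and Itgam did not pass, with log2 differences (shPGAM5 minus shDRP1) of 0.017, 0.013 and -0.14 and limma adjusted p of 0.721, 0.729 and 0.178. Sums for T cell, B cell, neutrophil, dendritic cell and fibroblast markers were at most 0.378 FPKM in any library, and markers listed at 0 in all included Cd3e, Cd8a, Trac, Ms4a1, Ly6g, S100a9, Col1a2, Dcn and Pdgfra. The 4 lower macrophage markers thus differed between the same groups that are compared for every gene below, and their part in the results was not tested. Fewer cells of a type and less RNA per cell cannot be told apart in bulk RNA.

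Most proteasome genes were strongly expressed and differed little between the knockdowns. Among the 48 tested, levels ran from Psmd8, a 19S lid subunit, at 324, 329 and 358 FPKM in the shPGAM5 libraries and 352, 348 and 349 FPKM in the shDRP1 libraries, down to Psmc3ip at 1.76, 1.79 and 2.31 FPKM against 1.43, 1.59 and 1.81 FPKM. The groups overlapped for both. Summed over its 14 genes, the standard 20S core was at 1285, 1300.1 and 1422 FPKM in the shPGAM5 libraries and at 1314, 1294 and 1281 FPKM in the shDRP1 libraries. The 17 genes of the 19S particle summed to 1389, 1399 and 1487 FPKM against 1410.1, 1389.9 and 1405 FPKM. The 3 immunoproteasome genes together reached 12.6, 12.7 and 14.4 FPKM against 12.8, 11.4 and 13.1 FPKM. All of these sums overlapped between the groups, and shPGAM5 library 3 held the highest value of each.

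**Figure D1:**
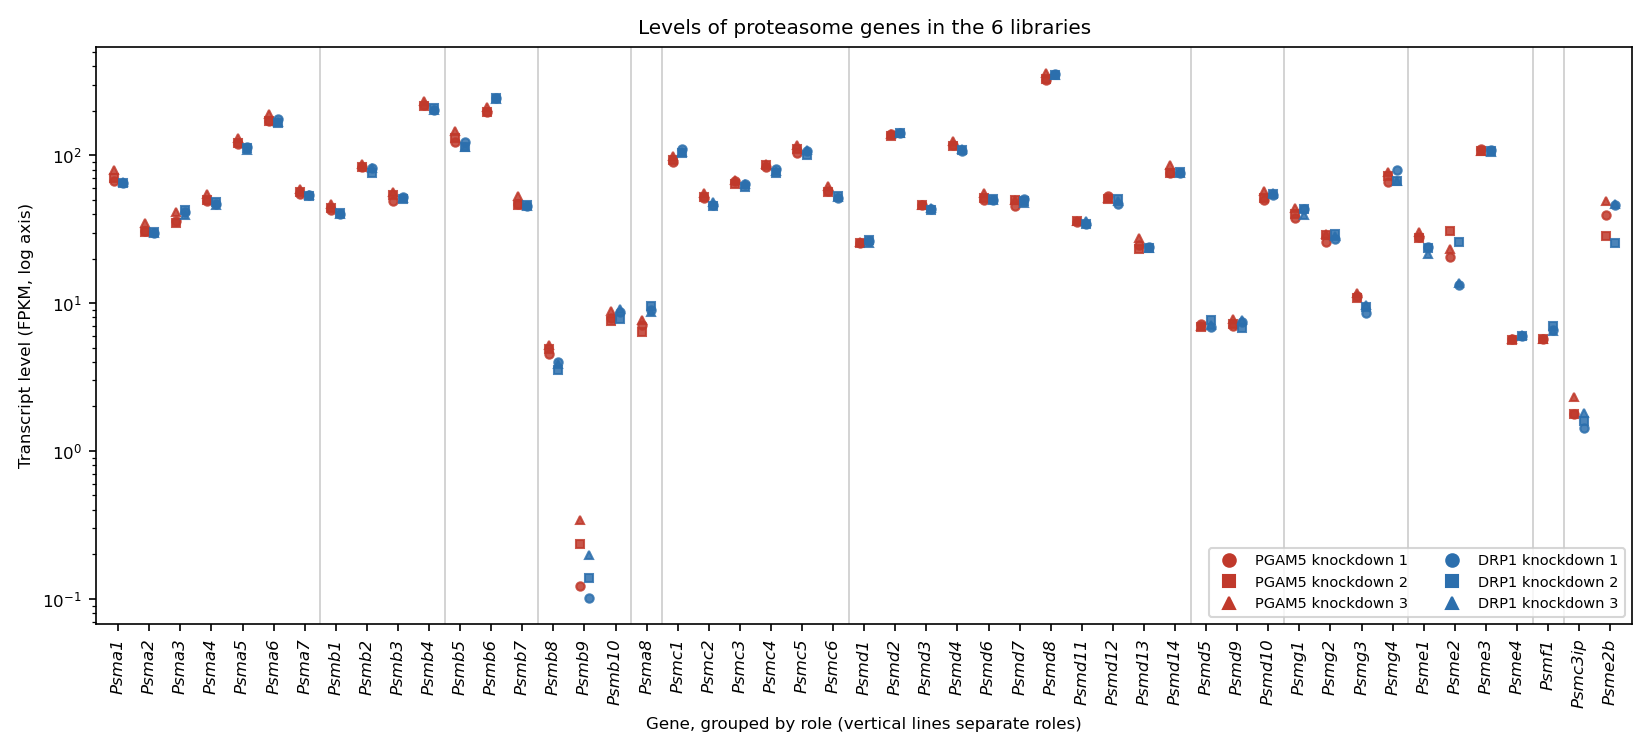
Transcript level (FPKM, log axis) of each proteasome gene with a nonzero value in every library, in order of role along the horizontal axis, with 1 point per library. The immunoproteasome genes Psmb8, Psmb9 and Psmb10 lie between 0.102 and 9.06 FPKM, under every other core gene but the tissue-specific Psma8.

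Among the 48 genes tested, 10 rose and 4 fell in shPGAM5 relative to shDRP1 cells at an adjusted p of 0.05. The share that rose was 20.8%, beside 13.8% of all 10634 genes tested, and the share that fell was 8.33%, beside 11.7%. Calls in either direction made up 29.2% of the proteasome genes and 25.4% of all genes. The genes that rose were Psma5, Psmb1, Psmb8, Psmc2, Psmc4, Psmc6, Psmd3, Psmd4, Psme1 and Psmg3, and those that fell were Psma8, Psmb6, Psmc1 and Psmf1. The median difference was 0.064 on the log2(FPKM + 1) scale, against 0.0094 for all genes, and 33 of 48 differences were above 0 (68.8%, against 52.3% of all genes). After quantile normalization the median was 0.026, against -0.00065 for all genes. In 20 genes (41.7%) every shPGAM5 library lay above every shDRP1 library, which held for 23.0% of all genes. In 6 genes (12.5%) every shPGAM5 library lay below, which held for 20.5% of all genes.

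Library 3 of shPGAM5 was the highest of the 6 for 30 of the 48 genes (62.5%), against 26.1% of all genes. Its FPKM summed over all genes were also the highest, at 393668 against 364737 to 381321 in the other libraries. The main fit did not rescale the libraries. After median scaling 7 rose (14.6%, beside 12.5% of all genes) and 4 fell (8.33%, beside 13.2%). Without shPGAM5 library 3, 10 rose (20.8%, beside 13.7% of all genes) and 7 fell (14.6%, beside 12.1%), and the median difference was 0.021. Of the calls with 6 libraries, 9 of the 10 genes that rose and all 4 that fell were kept. Psmb4 was added to those that rose and Psma3, Psmd8 and Psmd10 to those that fell. The count that rose was 4, 3 and 4 without shDRP1 library 1, 2 and 3 in turn. These are 8.33, 6.25 and 8.33% of the proteasome genes, beside 9.40, 9.22 and 9.43% of all genes, so the share that rose was above that of all genes with 6 libraries and below it without any 1 of the shDRP1 libraries. Without the trend in the fit it was also below, at 10.4% (5 genes) beside 12.6%. Without shPGAM5 library 2 it was 6 genes, 12.5% beside 10.7%. The count that fell was 2 without shDRP1 library 1 (4.17%, beside 7.82% of all genes). Psmb6, Psme1, Psmg3 and Psma8 passed in all 13 alternatives run, with the highest adjusted p of each at 0.0139, 0.0293, 0.0362 and 0.0497.

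**Figure D2:**
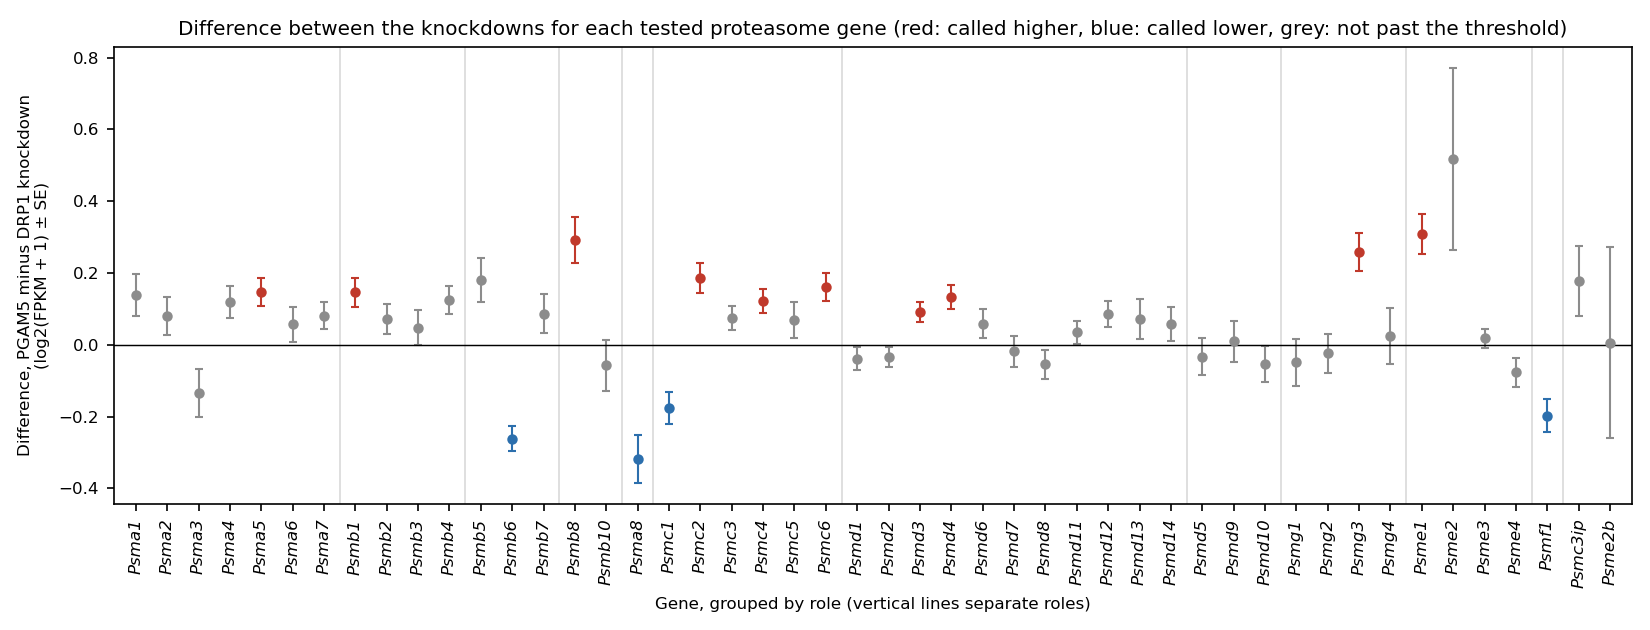
Difference between the knockdowns (shPGAM5 minus shDRP1, log2(FPKM + 1), with its standard error) for the 48 proteasome genes tested, in order of role. Red points are the 10 genes that rose and blue points the 4 that fell, and Psme2 and Psme2b have the widest error bars.

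The alpha ring, which gates the entry to the core, shifted little. Of its 7 genes 1 rose (14.3%, beside 13.8% of all genes), none fell (beside 11.7%), and the median difference was 0.081. Psma5 was at 119.7, 120.2 and 130.0 FPKM in the shPGAM5 libraries and at 113, 112 and 108 FPKM in the shDRP1 libraries. The groups did not overlap, and the difference was 0.15 (SE 0.039, adjusted p 0.031), a call lost in 7 of the 13 alternatives. Psma1, Psma2, Psma4 and Psma7 likewise lay higher in each shPGAM5 library, with adjusted p from 0.096 to 0.303. Every shPGAM5 library was thus above every shDRP1 library in 5 of the 7 genes (71.4%, beside 23.0% of all genes). Library 3 of shPGAM5 was the highest for 6 of them (85.7%, beside 26.1% of all genes). Psma3 alone of the alpha ring had a difference below 0 (-0.13, adjusted p 0.179). Reads of Psma5 and Psma3 can be shared with near-identical pseudogenes. With those summed, a step added after seeing the data, the limma differences were 0.15 for Psma5 (adjusted p 0.047) and -0.13 for Psma3 (adjusted p 0.165).

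The beta subunits without a cutting site showed the same small size of difference. Of Psmb1 to Psmb4, 1 rose and none fell, with a median difference of 0.099. Psmb1 was at 42.8, 44.0 and 47.1 FPKM in the shPGAM5 libraries and at 40.2, 40.5 and 39.9 FPKM in the shDRP1 libraries. The difference was 0.15 (adjusted p 0.033) and the call was lost in 8 alternatives. Psmb4, the most abundant of them, was at 218, 214 and 234 FPKM against 202, 207 and 201 FPKM, without overlap and with an adjusted p of 0.051.

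Of the 3 catalytic subunits of the standard core 1 fell (33.3%, beside 11.7% of all genes) and none rose (beside 13.8%). Their median difference was 0.086. The one that fell was Psmb6, which cuts after acidic residues. Psmb5, which cuts after hydrophobic residues, and Psmb7, which cuts after basic residues, did not pass the test, and whether they differ from Psmb6 in their response was not tested. Psmb6 (chr11:70525367-70527858) was at 197, 197 and 212 FPKM in the shPGAM5 libraries and at 243, 244 and 238 FPKM in the shDRP1 libraries. Every shPGAM5 library was lower, by 1.20-fold on the means of 202 ± 8.43 and 242 ± 3.19 FPKM (SD, n = 3). The difference was -0.26 (SE 0.035, adjusted p 0.0021), and the adjusted p stayed between 5.2e-05 and 0.0139 over the alternatives.

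Psmb5 was at 123, 129.8 and 145 FPKM in the shPGAM5 libraries and at 123, 114 and 113 FPKM in the shDRP1 libraries. Its difference was 0.18 (SE 0.061, adjusted p 0.069), which became a call with voom on the recovered reads (0.023) and without shPGAM5 library 1 (0.033). Psmb7 was at 46.6, 45.7 and 52.9 FPKM against 45.1, 45.7 and 45.6 FPKM, a difference of 0.086 (SE 0.054, adjusted p 0.289). In both, library 3 of shPGAM5 stood above the other libraries of its group. Of the exonic bases of Psmb7 11.8% also lie in exons of Nek6, whose part in the result was not tested. Reads of Psmb5 can be shared with Gm3375, a processed pseudogene on another chromosome (chr7:3181093-3181888) that was listed at 158 to 173 FPKM, above Psmb5 itself. With the reads of both summed, a step added after seeing the data, the difference was 0.13 (SE 0.032, adjusted p 0.023). Leaving out 1 library at a time gave adjusted p from 0.0137 to 0.0851 for that sum.

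Transcripts of the immunoproteasome subunits were scarce beside those they stand in for, and only Psmb8 differed between the knockdowns by the test. Psmb8 (chr17:34197721-34201454), which takes the place of Psmb5, was at 4.55, 4.86 and 5.19 FPKM in the shPGAM5 libraries and at 3.97, 3.51 and 3.88 FPKM in the shDRP1 libraries. Each shPGAM5 library was higher, and the means of 4.86 ± 0.321 and 3.79 ± 0.243 FPKM (SD, n = 3) differed 1.28-fold. The log2 difference was 0.29 (SE 0.064, adjusted p 0.015). It lost its call without shDRP1 library 2 (adjusted p 0.053). An antisense gene covers 14.7% of its exonic bases and was listed at 0 in all libraries.

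Psmb9 (chr17:34181987-34187764), which takes the place of Psmb6, was near the limit of detection. It had 8, 14 and 23 reads in the shPGAM5 libraries and 6, 9 and 16 in the shDRP1 libraries, which is 0.123, 0.234 and 0.343 FPKM against 0.102, 0.139 and 0.199 FPKM. The groups overlapped, and 3 reads would have been 0.0374 to 0.0509 FPKM. Of its exonic bases 5.8% also lie in exons of Tap1. Psmb10 (chr8:105935735-105938444), which takes the place of Psmb7, was at 7.96, 7.62 and 8.87 FPKM against 8.70, 7.79 and 9.06 FPKM. These overlapped too, with a difference of -0.057 (SE 0.071, adjusted p 0.596).

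**Figure D3:**
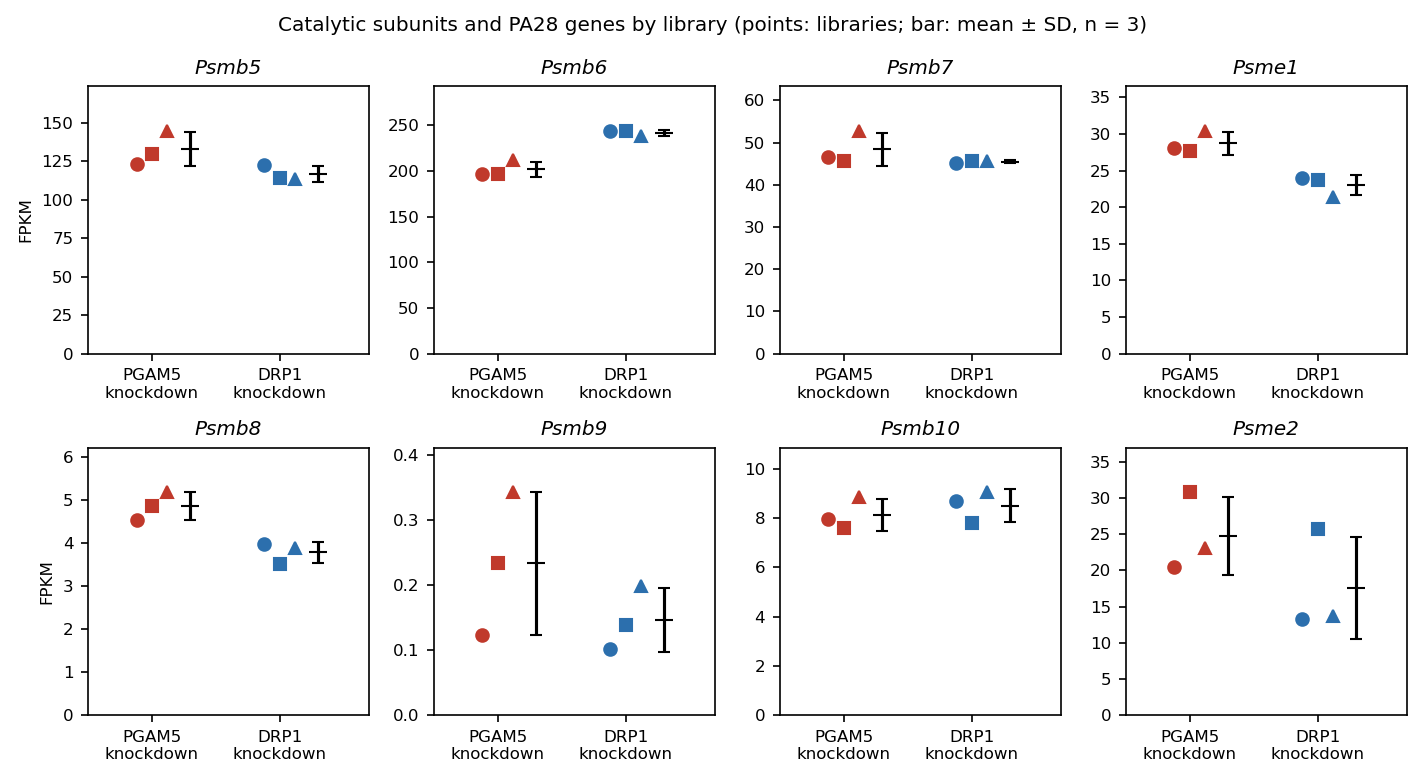
FPKM of the standard catalytic subunits, their immunoproteasome counterparts and the PA28 genes in each library (points) with the mean and SD of 3 libraries (bars), each panel on its own axis from 0. Psmb6 is lower and Psmb8 and Psme1 are higher in all 3 shPGAM5 libraries, while the groups overlap for Psmb9, Psmb10 and Psme2.

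Each immunoproteasome transcript was also set against its standard counterpart within a library. Psmb8 amounted to 3.68, 3.74 and 3.58% of Psmb5 in the shPGAM5 libraries and to 3.24, 3.07 and 3.43% in the shDRP1 libraries, so the groups did not overlap. Psmb5 alone, at 113 to 145 FPKM over all libraries, was used here. With the reads of Gm3375 summed into it, Psmb5 was at 258 to 296 FPKM, against which the Psmb8 percentages would be lower. Psmb9 amounted to 0.062, 0.119 and 0.162% of Psmb6 against 0.042, 0.057 and 0.084%. Psmb10 amounted to 17.1, 16.6 and 16.8% of Psmb7 against 19.3, 17.1 and 19.9%. The last ratio was the largest of the 3 in every library, and the groups overlapped for it and for Psmb9. Differences of the log2 ratios were 0.18, 0.87 and -0.15. By an exact two-sided permutation test over libraries the p-values were 0.1, 0.2 and 0.2, all 0.2 once adjusted over the 3 ratios, and 0.1 is the smallest p that 3 libraries against 3 allow.

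The PA28 genes lie close together on chromosome 14, and of the 2 Psme1 rose while Psme2 did not pass the test. Psme1 (chr14:55578123-55581529) was at 28.0, 27.6 and 30.5 FPKM in the shPGAM5 libraries and at 23.9, 23.7 and 21.4 FPKM in the shDRP1 libraries. The groups did not overlap, and the means of 28.7 ± 1.52 and 23.0 ± 1.36 FPKM (SD, n = 3) differed 1.25-fold. The difference was 0.31 (SE 0.055, adjusted p 0.0066), with adjusted p from 0.0010 to 0.0293 over the alternatives.

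Psme2 (chr14:55587441-55591113) had the largest difference of all 48 genes, 0.52, and also nearly the largest error (SE 0.25, adjusted p 0.182). It was at 20.5, 30.8 and 23.1 FPKM in the shPGAM5 libraries and at 13.2, 25.8 and 13.8 FPKM in the shDRP1 libraries, with library 2 the highest in both groups. Psme2b, on chromosome 11 (chr11:48945354-48946190), ran the other way, at 39.7, 28.4 and 48.9 FPKM against 46.1, 25.3 and 46.5 FPKM, with library 2 the lowest in both. Psme2b has 1 exon where Psme2 has 11. Their coding sequences are both 717 bases long, differ by 5 substitutions and are identical over a run of 311 bases, so that a read covering none of the substitutions matches both. A stretch of both is shown because it holds 3 of the 5 differences (coding bases 394 to 543, GENCODE M21, differing bases in capitals).
Psme2: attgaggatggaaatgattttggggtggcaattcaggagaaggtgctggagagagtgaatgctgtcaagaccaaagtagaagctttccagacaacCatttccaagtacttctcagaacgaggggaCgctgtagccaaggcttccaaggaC
Psme2b: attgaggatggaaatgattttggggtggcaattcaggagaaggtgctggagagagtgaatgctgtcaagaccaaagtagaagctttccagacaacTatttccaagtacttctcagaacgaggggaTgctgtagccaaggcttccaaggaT

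The share of the pair's reads given to Psme2 was 52.1, 69.6 and 49.9% in the shPGAM5 libraries and 37.7, 68.2 and 38.4% in the shDRP1 libraries. Summed over the pair, reads came to 69.3, 78.2 and 81.7 rpm (reads scaled to depth as in FPKM, but not to length) in the shPGAM5 libraries and 61.9, 66.7 and 63.2 rpm in the shDRP1 libraries. The sum did not overlap between the groups, whereas each gene alone did. In a fit with such copies summed, added after seeing the data, the pair was at 43.3 ± 3.62 FPKM against 36.2 ± 1.40 FPKM (SD, n = 3), a difference of 0.25 (SE 0.062, adjusted p 0.025). Leaving out 1 library at a time gave adjusted p from 0.0049 to 0.0852. In that fit 12 of 47 proteasome genes rose (25.5%, beside 13.8% of all genes) and 4 fell (8.51%, beside 11.7%).

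**Figure D4:**
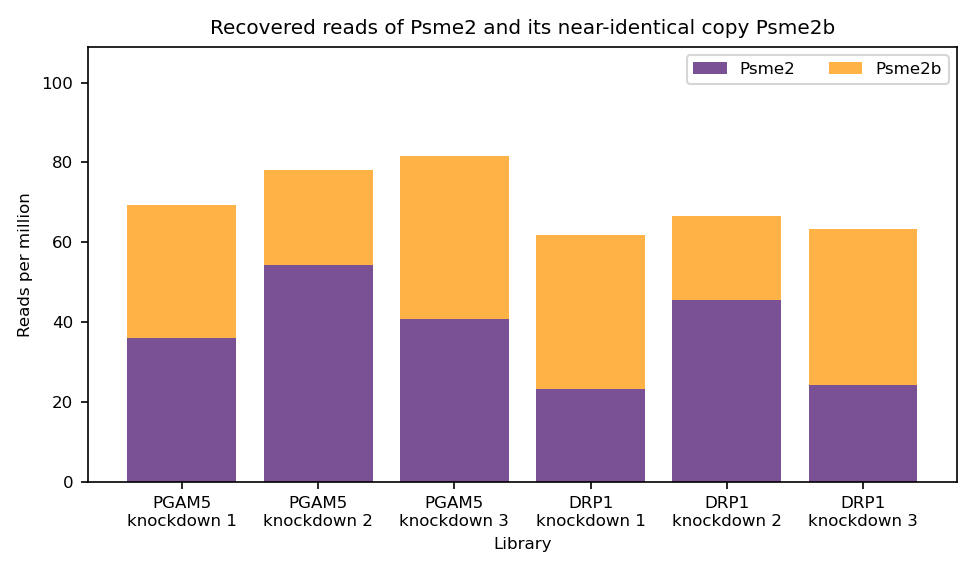
Reads scaled to depth (rpm) assigned to Psme2 (purple) and to its near-identical copy Psme2b (orange), stacked for each of the 6 libraries. The stacks reach 69.3 to 81.7 in the shPGAM5 libraries and 61.9 to 66.7 in the shDRP1 libraries, while the part given to Psme2 is largest in library 2 of each group.

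The other activators did not pass the test. Psme3 forms the PA28 ring of the nucleus and was at 110.0, 106 and 107 FPKM in the shPGAM5 libraries and 108, 106 and 105 FPKM in the shDRP1 libraries (adjusted p 0.666). Psme4 encodes the PA200 activator and was at 5.72, 5.60 and 5.71 FPKM against 6.03, 5.98 and 6.12 FPKM (adjusted p 0.207). Psme4 thus lay lower in each shPGAM5 library by a small step of -0.077. Psmf1, which encodes the PI31 protein that inhibits the core in the test tube, fell, at 5.69, 5.74 and 5.68 FPKM against 6.61, 7.01 and 6.45 FPKM. Its difference was -0.20 (SE 0.045, adjusted p 0.018), lost without shDRP1 library 1 or 2 (highest adjusted p 0.068).

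The tissue-specific core subunits are known from testis (Psma8, which stands in for Psma7) and thymic epithelium (Psmb11). Psma8 transcripts were measured in these macrophages and fell, at 7.15, 6.40 and 7.71 FPKM in the shPGAM5 libraries and 8.95, 9.52 and 8.75 FPKM in the shDRP1 libraries. The groups did not overlap, and the means of 7.09 ± 0.655 and 9.07 ± 0.398 FPKM (SD, n = 3) differed 1.28-fold. The difference was -0.32 (SE 0.066, adjusted p 0.012). Psma7 was at 53.0 to 59.4 FPKM over all libraries. Psmb11 had 1 read in 1 library and none in the others, where 3 reads would have been 0.0285 to 0.0389 FPKM.

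The 6 ATPases at the base of the 19S particle, which thread the substrate into the core, gave the most calls of any role group. Of these, 3 rose (50%, beside 13.8% of all genes) and 1 fell (16.7%, beside 11.7%). The median difference was 0.098. Psmc2 was at 51.3, 52.4 and 55.4 FPKM in the shPGAM5 libraries and at 45.8, 45.2 and 48.5 FPKM in the shDRP1 libraries (difference 0.19, adjusted p 0.017). Psmc6 was at 57.2, 56.3 and 61.6 FPKM against 51.6, 52.9 and 51.8 FPKM (0.16, adjusted p 0.022). Psmc4 was at 82.8, 85.3 and 86.8 FPKM against 80.2, 76.0 and 77.9 FPKM (0.12, adjusted p 0.032). In all 3 the groups did not overlap. Psmc1, another ATPase of the ring, fell, at 89.3, 93.4 and 99.2 FPKM against 110.3, 103 and 106 FPKM (-0.18, adjusted p 0.028). The calls of Psmc2, Psmc6, Psmc1 and Psmc4 were lost in 2, 5, 7 and 9 alternatives. Psmc3 and Psmc5 did not pass (adjusted p 0.147 and 0.352).

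Among the 11 other subunits of the 19S particle, which bind ubiquitin, cut it off and hold the lid, 2 rose and none fell. The share that rose was 18.2%, beside 13.8% of all genes, and 11.7% of all genes fell. The median difference was 0.058. Psmd4, a ubiquitin receptor, was at 117, 116 and 124 FPKM in the shPGAM5 libraries and at 107, 108 and 109.8 FPKM in the shDRP1 libraries (0.13, adjusted p 0.027). Psmd3, a lid subunit, was at 45.8, 46.4 and 46.1 FPKM against 43.1, 42.7 and 43.8 FPKM (0.091, adjusted p 0.045). Both were without overlap, and their calls were lost in 5 and 9 alternatives. Psmd14, the deubiquitinase of the lid, was at 75.3 to 85.4 FPKM over all libraries and did not pass (adjusted p 0.418). Psmd8 had a difference of -0.054 (adjusted p 0.374) that became a call without shPGAM5 library 3 and after quantile normalization.

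The chaperones that assemble the particles moved in 1 case. Psmg3, which helps to build the alpha ring together with Psmg4, was at 11.2, 10.9 and 11.7 FPKM in the shPGAM5 libraries and at 8.62, 9.38 and 9.76 FPKM in the shDRP1 libraries. It rose 1.22-fold on the means, without overlap (0.26, SE 0.053, adjusted p 0.011), and passed in every alternative. Of its exonic bases 9.68% also lie in exons of Gm26938, whose part in the result was not tested. Its partner Psmg4 was at 66.3, 72.5 and 76.8 FPKM against 78.8, 67.0 and 66.5 FPKM and did not pass (adjusted p 0.852). Psmg1 and Psmg2, the other pair of this group, had adjusted p of 0.628 and 0.786. None of the 3 chaperones of the 19S base, Psmd5, Psmd9 and Psmd10, passed (beside 25.4% of all genes), with differences from -0.054 to 0.0094.

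**Figure D5:**
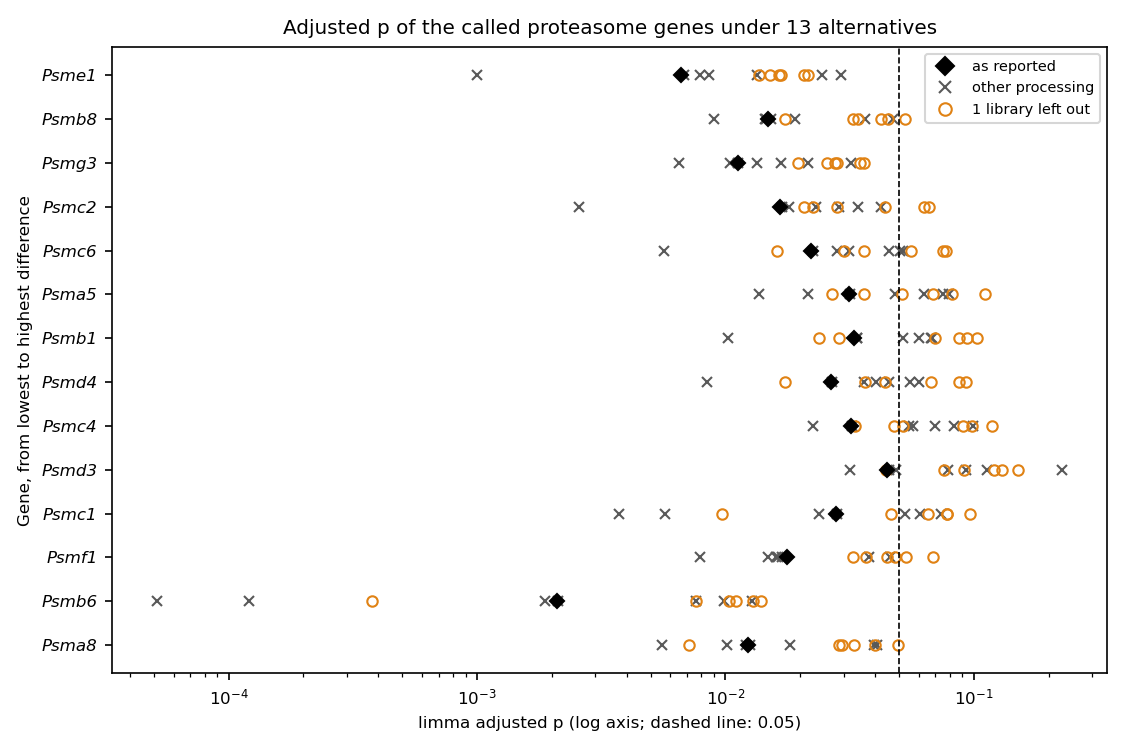
Adjusted p (log axis) of the 14 genes that rose or fell, as reported (diamonds), under 7 other ways of processing (crosses) and with 1 library left out (circles), with 0.05 as the dashed line. All points of Psmb6, Psme1, Psmg3 and Psma8 lie left of the line, while those of Psmd3 and Psmc4 lie mostly to its right.

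Start regions were read from the RefSeq table for GRCm38.p6, which holds 300 bases a gene and matched 42 of the 50. Those of Psmb8 and Psme1, which rose, of Psmb6, which fell, and of the catalytic subunit Psmb5 are shown. Both strands of the 300 bases were searched for TTCNNNGAA (the interferon-gamma activated site), GAAA-NN-GAAA (the core of the interferon-stimulated response element) and TGACNNNGC (the core of the antioxidant response element). Matches are in capitals, and each line gives the sequence 5′ to 3′ on the gene's own strand. The stretches are chr17:34198088-34198117 (plus) for Psmb8, chr14:55578489-55578518 (plus) for Psme1, chr11:70525207-70525356 (plus) for Psmb6 and chr14:54618023-54618145 (minus) for Psmb5.
Psmb8: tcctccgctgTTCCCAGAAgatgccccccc
Psme1: gtttcgagctgtgcTTTCGCTTTCccttcc
Psmb6: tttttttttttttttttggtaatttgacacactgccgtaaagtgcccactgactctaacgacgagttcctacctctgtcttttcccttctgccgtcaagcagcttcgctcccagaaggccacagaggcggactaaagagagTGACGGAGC
Psmb5: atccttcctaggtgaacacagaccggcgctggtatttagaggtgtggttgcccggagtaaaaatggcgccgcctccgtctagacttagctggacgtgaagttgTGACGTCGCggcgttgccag

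Counted from the RefSeq start, the activated site begins 97 bases upstream in Psmb8, the interferon-stimulated element at transcript base 10 in Psme1, and the antioxidant element 9 bases upstream in Psmb6 and 47 upstream in Psmb5. The RefSeq starts of Psmb8 and Psme1 lie 474 and 371 bases downstream of the GENCODE gene starts printed above, so both stretches fall inside the GENCODE genes, in leader exons of some of their transcripts. The letters of the activated site were found in 3 of the 42 (7.14%), beside 9.55% of 27025 genes in the table. Those of the interferon-stimulated element were found in 5 (11.9%), beside 3.99%, in Psmb3, Psmd4, Psmd9, Psme1 and Psmg4. Those of the antioxidant element were found in 6 (14.3%), beside 14.0%. A match is a description of the letters only.

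Regulators of the immunoproteasome and genes that load peptides on MHC class I included calls in both directions. Of 16 such genes 3 rose (18.8%, beside 13.8% of all genes) and 2 fell (12.5%, beside 11.7%), with a median difference of 0.019. Nlrc5, which encodes the transactivator of MHC class I genes, was at 3.37, 3.58 and 2.94 FPKM in the shPGAM5 libraries and at 2.19, 2.25 and 2.32 FPKM in the shDRP1 libraries (0.40, SE 0.071, adjusted p 0.0068). Tap1, a chain of the peptide transporter (chr17:34187553-34197225), was at 3.30, 3.50 and 2.62 FPKM against 2.12, 2.41 and 2.19 FPKM (0.35, adjusted p 0.030). Both were without overlap. Tap1 lost its call in 6 alternatives, 5 of them with 1 library left out, and Nlrc5 in none. Ifngr2, a chain of the interferon-gamma receptor, fell, at 22.7, 23.6 and 22.8 FPKM against 28.2, 27.8 and 28.5 FPKM (-0.28, adjusted p 0.00091). Irf1, which drives immunoproteasome genes after interferon, did not pass (adjusted p 0.406).

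Genes that bring substrates to the proteasome, or supply its transcription factor Nfe2l1 and ubiquitin, were called equally often in either direction. Of 15 tested, 3 rose and 3 fell, 20% each, beside 13.8% and 11.7% of all genes, with a median difference of -0.020. Ngly1, the glycanase that acts on Nfe2l1, was at 4.45, 4.08 and 4.28 FPKM in the shPGAM5 libraries and at 3.60, 3.47 and 3.84 FPKM in the shDRP1 libraries (0.18, adjusted p 0.049). Ufd1, a cofactor of the segregase Vcp, fell, at 14.1, 14.2 and 14.0 FPKM against 16.0, 16.7 and 14.9 FPKM (-0.16, adjusted p 0.044). The groups did not overlap for either, but the calls of Ngly1 and Ufd1 were lost in 9 and 8 alternatives. Nfe2l1 itself had a difference of 0.039 (adjusted p 0.301).

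Of 12 tested partners that bind or help to build the proteasome, 1 rose (8.33%, beside 13.8% of all genes) and none fell (beside 11.7%). The median difference was -0.0047. Txnl1, a thioredoxin-like protein of the 19S particle, was at 75.2, 76.5 and 79.2 FPKM in the shPGAM5 libraries and at 64.4, 67.0 and 70.7 FPKM in the shDRP1 libraries. The groups did not overlap (0.19, SE 0.041, adjusted p 0.014), and the call was lost without shDRP1 library 2 (adjusted p 0.054). Pomp, the maturation factor of the core, was at 11.2 to 12.3 FPKM over all libraries (adjusted p 0.714).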

How the data were processed

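RNA from 3 shPGAM5 and 3 shDRP1 libraries was captured on poly-T beads and copied from random primers, per the labels' protocols, which leave the strand setting unclear. HISAT2 2.0.5, featureCounts 1.5.0-p3 and mm10 are listed in the submitters' processing notes. No source used here gives the annotation or the FPKM formula. The authors deposited FPKM, 1 value per gene and library. Of 54532 identifiers 54495 were matched to GENCODE M21 and 37 were not. Depths and reads were recovered from FPKM and exonic length, which gave whole reads (tolerance 0.02) for 96.1% of values.

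limma 3.58.1 (R 4.3.3; all 6 libraries, empirical Bayes with trend, two-sided) was run on log2(FPKM + 1) of genes whose mean FPKM was 1 or more. A fold change on this scale is understated for low genes. Benjamini-Hochberg adjustment covered all 10634 genes and the threshold was 0.05. Differences are shPGAM5 minus shDRP1, and fold values are ratios of mean FPKM. Alternatives were a pseudocount of 0.1, no filter, quantile and median scaling, no trend, a replicate block, voom on the recovered reads, and each library left out. Reads were simulated for shPGAM5 against shDRP1 (10635 genes, 50 changed per fold). Of genes changed 1.25-fold 56% were recovered, 96% at 1.5-fold and 98% at 2-fold, and 16 of 190 calls were false. Far fewer genes were changed there than the 2704 (25.4%) called in the data. The adjusted p depends on that share, so the recovery need not hold for the real fit.

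The members, gene lists and tests were chosen with earlier results of these data known. Every library's value is given for the catalytic and PA28 genes, for genes past the threshold, and for the 2 most and 2 least abundant tested. Up to 3 called genes per other list are named, except that some are not reported here. Other uncalled members, Irf1, Nfe2l1 and Pomp were named after their values were seen. Copies were sought with blastn 2.17.0 (97% identity over at least 100 bases, over 20% of the longest transcript), and summing them was chosen after seeing the data. Of 13 partners and 16 delivery genes listed, 1 partner was not analysed here and Ddi1 had 0 reads.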

Additional observations from a re-analysis of the deposited data

How the results depend on the processing

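None of the 14 proteasome genes called changed sign under the 13 alternatives, while 8 of the 34 not called did (Psmd5, Psmd7, Psmd9, Psme2b, Psme3, Psmg1, Psmg2 and Psmg4). Values were recomputed for 25 single genes under these alternatives and, for genes with copies, also in the fits with copies summed that were added after seeing the data. Of all these values 254 kept their side of the threshold, 89 lost a call and 10 gained one. The 10 proteasome genes that rose became 5 without the filter on low values (10.0% beside 5.48% of all genes), 5 without the trend (10.4% beside 12.6%) and 6 with the replicate block (12.5% beside 10.9%). With 1 library left out they became 3 (6.25% beside 9.22%) to 11 (22.9% beside 12.4%). The 4 that fell became 2 (4.17% beside 7.82%) to 7 (14.6% beside 12.1%). Immunoproteasome regulators that rose numbered 1 without the filter, 5 without the trend and 1 to 3 with 1 library left out, and those that fell 1 without the filter, 1 without the trend, 1 with the block and 1 to 2 with 1 library left out. Delivery genes that rose numbered 1 after quantile normalization, 1 with the block and 1 to 2 with 1 library left out, and those that fell 1 without the trend, 1 with the block and 1 to 2 with 1 library left out. Partners that rose and that fell each numbered 0 to 1 with 1 library left out. Over all genes, the share that rose was 5.48% without the filter, 12.6% without the trend, 12.6% after quantile normalization and 10.9% with the block. It was 9.22 to 13.7% with 1 library left out. The share of all genes that fell was 4.64% without the filter, 11.4% without the trend, 9.14% with the block and 7.71 to 12.1% with 1 library left out. For each shift of a count in these settings the cause was not tested. On the recovered reads, voom called 12 proteasome genes that rose (25%, beside 15.6% of all genes) and 4 that fell (8.33%, beside 14.2%).

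Over the genes tested, same-numbered libraries of the groups did not deviate together (correlations 0.021, 0.031 and -0.00034). The numbers are therefore not taken to pair them, and the calls lost with the replicate block are not read as weaker effects. Psme2 and Psme2b went otherwise, as library 2 gave the largest share to Psme2 in both groups (69.6 and 68.2%). The cause of that was not tested. Psme2 gained a call with the replicate block (adjusted p 0.018) and without shDRP1 library 2 (0.019). Reads limit Psmb9 and Psmb11, and reads shared with near-identical copies limit Psme2, Psme2b, Psmb5, Psma3, Psma5, Psmb3 and Psmc1. Psmd11 matched other genes over 52.7% of its longest coding transcript. Exons of other genes also cover 11.8% of the exonic bases of Psmb7, 21.2% of those of Psmc3ip and 25.5% of those of Psmd9. What these overlaps contribute was not tested.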
